A study of Mus musculus with 5 samples.

Results

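The mitochondrial genome of the mouse (mtDNA) encodes 7 subunits of respiratory complex I: mt-Nd1, mt-Nd2, mt-Nd3, mt-Nd4, mt-Nd4l, mt-Nd5 and mt-Nd6. They were chosen by gene name, as 7 of the 17015 rows of the deposited gene table, and all 7 passed the minimum on low values that left 12148 genes for testing. RNA was sequenced from tibialis anterior (TA), a fast hindlimb muscle, of sedentary male mice aged 8 weeks. The skmNrip1-/- mice carried Nrip1 with loxP sites around exon 4, which holds the start and stop codons, and a Cre driven by the myogenin promoter, which is active in the skeletal muscle lineage. The floxed line was C57BL/6J and was crossed with Cre mice given as C57BL/6JN, and the WT controls were Cre-negative littermates. There were 3 WT control and 2 skmNrip1-/- libraries, and the comparison asks how muscle transcripts differ when Nrip1, a nuclear corepressor of oxidative metabolism genes, is targeted in muscle.

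Complex I takes electrons from NADH, passes them to ubiquinone and pumps protons across the inner mitochondrial membrane. Its mtDNA-encoded subunits all sit in the membrane arm, where mt-Nd1 helps form the ubiquinone site and mt-Nd2, mt-Nd4 and mt-Nd5 are the antiporter-like proton pumping subunits. Both strands of mtDNA are transcribed as long RNAs that are cut at the tRNAs between the genes, so members on the same strand begin as pieces of the same precursor. mt-Nd6 alone among the mtDNA protein genes is read from the other, light-strand transcript.

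Nrip1 was higher, not lower, in the libraries labelled skmNrip1-/-. It measured 4.64, 7.69 and 6.55 FPKM (fragments scaled by gene length and by a factor per library, as deposited) in the WT controls. The libraries labelled skmNrip1-/- gave 25.3 and 22.5 FPKM, a log2 fold change of 1.94 (SE 0.21, limma adjusted p = 0.0261). The gene level value does not separate exon 4 from the rest of the gene, and every direction given here is for the libraries as labelled. The table listed fast muscle markers at 66215 to 89042 summed FPKM in the WT controls and 60287 to 62815 in the libraries labelled skmNrip1-/-, with all 7 markers present. Slow muscle markers summed to 14.2 to 22.1 against 43.8 to 58.9 FPKM and haemoglobin genes to 509.8 to 762 against 825 to 993 FPKM. Satellite cell markers summed to 0.921 to 1.13 against 0.743 to 0.845 FPKM. Endothelial, fat, nerve, leukocyte and heart marker sums overlapped between the groups, no marker was called, and the part of any of them in the results was not tested. In bulk muscle, fewer cells of a type and less RNA per cell cannot be told apart. The study describes more skmNrip1-/- mice for this experiment than the 2 libraries analysed here, and the labels do not tie libraries to animals, so p-values measure the spread between these samples.

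The subunits lie on chrM of GRCm38 as exons without introns. On the heavy-strand transcript, which is the plus strand of the assembly, mt-Nd1 spans 2751 to 3707, mt-Nd2 3914 to 4951, mt-Nd3 9459 to 9806, mt-Nd4l 9877 to 10173, mt-Nd4 10167 to 11544 and mt-Nd5 11742 to 13565. mt-Nd6 runs from 13552 to 14070 on the minus strand. Their lengths range from 297 bases for mt-Nd4l to 1824 for mt-Nd5, a spread that bears on the level of the shortest members. The opening 30 bases of each GENCODE M21 transcript are shown with the start codon in capitals, because they show that several members start at codons other than ATG and how different the bases of mt-Nd6 are.
mt-Nd1 (chrM:2751-2780, plus): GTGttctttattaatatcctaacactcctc
mt-Nd2 (chrM:3914-3943, plus): ATAaatcctatcacccttgccatcatctac
mt-Nd3 (chrM:9459-9488, plus): ATTaacctgtacactgttatcttcattaat
mt-Nd4l (chrM:9877-9906, plus): ATGccatctaccttcttcaacctcaccata
mt-Nd4 (chrM:10167-10196, plus): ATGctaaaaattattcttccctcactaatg
mt-Nd5 (chrM:11742-11771, plus): ATCaatattttcacaacctcaatcttatta
mt-Nd6 (chrM:14041-14070, minus): ATGaataattatatttttgttttaagttca
Over its whole length the mt-Nd6 transcript was 43.7% T, 28.1% G, 22.2% A and 5.97% C. The other 6 held 8.00 to 11.6% G and at least 22.1% C, so the G and C shares of mt-Nd6 lay outside their ranges.

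Members overlap at 2 places, where a fragment can belong to either gene. The closing 30 bases of the genes concerned are shown with the shared bases in capitals.
mt-Nd4l (chrM:10144-10173, plus): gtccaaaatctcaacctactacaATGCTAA
mt-Nd5 (chrM:13536-13565, plus): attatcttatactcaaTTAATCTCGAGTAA
mt-Nd6 (chrM:13552-13581, minus): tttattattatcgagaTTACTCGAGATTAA
mt-Nd4l shares its last 7 bases with the start of mt-Nd4 on the same strand. The ends of mt-Nd5 and mt-Nd6 share 14 bases on opposite strands, so the capitals of the latter pair are reverse complements. Whether strand was used in the counting is not given in the sources used here. Without strand, reads of mt-Nd6 and of the heavy-strand RNA that runs antisense to it cannot be told apart.

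All 7 subunits measured higher in each of the libraries labelled skmNrip1-/- than in any WT control, with mean ratios from 1.38 for mt-Nd1 to 1.80 for mt-Nd3. Of all genes tested, 15.8% were separated in this direction and 14.4% in the other, in which no member lay. None of the 7 was called by limma at an adjusted p of 0.05 and a fold change of 1.2, a rule that called 0.37% of genes as higher and 0.0823% as lower (0.453% in either direction). At an unadjusted p of 0.05 the fit took 6 of the 7 as higher and 0 as lower, against 6.57% and 5.33% of all genes. That count of 6 rested on single libraries and settings. It was 1 without WT control replicate 3, 1 and 0 without replicates 1 and 2 of the libraries labelled skmNrip1-/-, 1 with the replicate number as a block and 1 with no minimum on FPKM, and it was 7 and 5 without WT control replicates 1 and 2. The block returned the same fold changes as leaving out WT control replicate 3, the only library with that number. The 7 had a median log2 fold change of 0.61, and all genes tested had one of -0.00. In each library the median gene lay at 1.00171 times its geometric mean over the libraries. The scaling of the deposited values thus holds the median of all genes near 0. With 2 libraries against 3 there are 10 ways to split them, so an exact permutation test cannot go below a one-sided p of 0.1 for any single value.

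mt-Nd1, the subunit beside the ubiquinone pocket, measured 28067, 23265 and 20742 FPKM in the WT controls and 33311 and 32943 FPKM in the libraries labelled skmNrip1-/-. The groups did not overlap, but the WT controls spread widely (24024 ± 3721, SD, n = 3, against 33127 ± 260.2, SD, n = 2), and the lowest library labelled skmNrip1-/- was 1.17 times the highest WT control, the narrowest gap of the 7. Its log2 fold change was 0.47 (SE 0.22, limma adjusted p = 0.467, unadjusted p = 0.0691), and it was the member that missed the unadjusted threshold.

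mt-Nd2, the antiporter-like subunit nearest the quinone site, measured 20490, 20163 and 16772 FPKM in the WT controls and 28350 and 29741 FPKM in the libraries labelled skmNrip1-/-. Its gap between the groups was the widest of the 7, with the lowest library labelled skmNrip1-/- at 1.38 times the highest WT control. The log2 fold change was 0.61 (SE 0.20, limma adjusted p = 0.314).

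mt-Nd4, the middle proton pumping subunit, measured 17125, 14109 and 13692 FPKM in the WT controls and 20587 and 22069 FPKM in the libraries labelled skmNrip1-/-, a log2 fold change of 0.52 (SE 0.20, limma adjusted p = 0.375). mt-Nd5, the subunit at the far tip of the membrane arm, measured 11911, 14023 and 11051 FPKM in the WT controls and 17078 and 17642 FPKM in the libraries labelled skmNrip1-/-, a log2 fold change of 0.50 (SE 0.19, limma adjusted p = 0.374). These 2 subunits had their highest WT value in different libraries, mt-Nd4 in replicate 1 and mt-Nd5 in replicate 2.

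mt-Nd3 carries a loop that moves when the enzyme passes between its active and deactive states. It measured 10027, 7208 and 7999 FPKM in the WT controls and 13134 and 17105 FPKM in the libraries labelled skmNrip1-/-. No member had a higher log2 fold change than mt-Nd3, at 0.85 (SE 0.22, limma adjusted p = 0.235). Its 2 libraries labelled skmNrip1-/- also lay furthest apart on the log2 scale (15119 ± 2808 FPKM, SD, n = 2). The small membrane subunit mt-Nd4l measured 48253, 56743 and 48672 FPKM in the WT controls and 77598 and 84834 FPKM in the libraries labelled skmNrip1-/-, a log2 fold change of 0.67 (SE 0.23, limma adjusted p = 0.343). These are the shortest members, and their levels are returned to where the effect of length on FPKM is given.

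mt-Nd6, a subunit of the membrane arm close to its junction with the matrix arm, measured 12946, 14743 and 11635 FPKM in the WT controls. The libraries labelled skmNrip1-/- gave 19875 and 20065 FPKM and differed little from each other (19970 ± 134.2, SD, n = 2, against 13108 ± 1560, SD, n = 3). The log2 fold change was 0.61 (SE 0.19, limma adjusted p = 0.293).

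**Figure D1:**
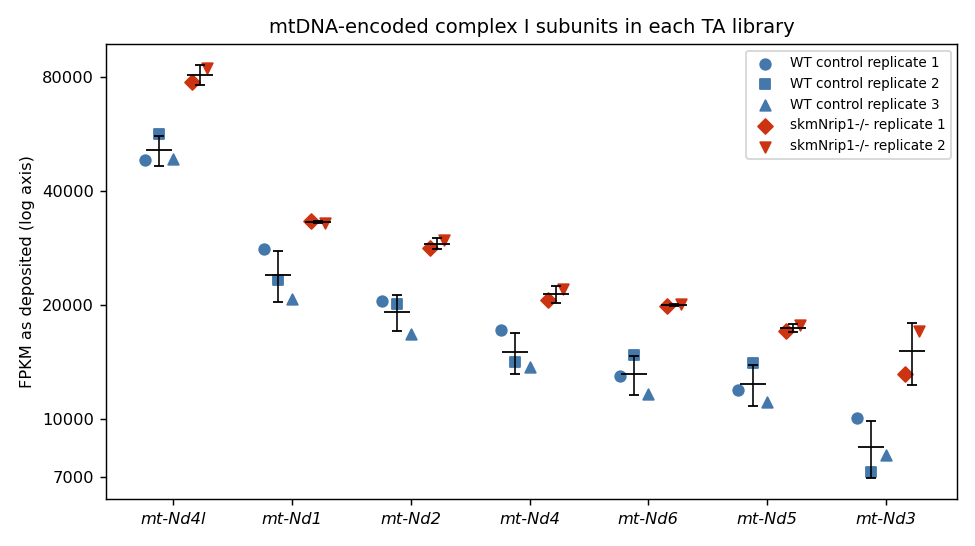
FPKM as deposited (log axis) of the 7 mtDNA-encoded complex I subunits, 1 point per library, in 3 WT control and 2 libraries labelled skmNrip1-/-. For each subunit both points of the latter group lie above all WT control points, with mt-Nd4l highest throughout (48253 to 84834 FPKM).

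The order of the mean levels was the same in both groups: mt-Nd4l, mt-Nd1, mt-Nd2, mt-Nd4, mt-Nd6, mt-Nd5 and mt-Nd3. FPKM is a value per length, so levels of different genes can be set beside each other on it, within the limits of the length correction. In the WT controls the ranges of mt-Nd2 and mt-Nd4, of mt-Nd4 and mt-Nd6, and of mt-Nd6 and mt-Nd5 overlapped. Compared within each WT library, mt-Nd2 was above mt-Nd4 and mt-Nd6 above mt-Nd5 in 3 of 3, and mt-Nd4 was above mt-Nd6 in 2 of 3, so of these neighbours mt-Nd4 and mt-Nd6 did not keep 1 order. In the libraries labelled skmNrip1-/- the overlapping neighbours were mt-Nd5 and mt-Nd3, with mt-Nd5 above in 2 of 2. mt-Nd4l stood at 2.13 times mt-Nd1 in the WT controls and 2.45 times in the libraries labelled skmNrip1-/-, by group means.

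The WT controls did not move as a block. On a log2 scale centred on the WT control mean of each gene, replicate 1 was the highest WT library for mt-Nd1, mt-Nd2, mt-Nd3 and mt-Nd4 (0.10 to 0.27), while replicate 2 was the highest for mt-Nd4l, mt-Nd5 and mt-Nd6 (0.15 to 0.19). Replicate 3 was below 0 for all 7, from -0.20 for mt-Nd1 to -0.06 for mt-Nd3. The libraries labelled skmNrip1-/- ran from 0.47 to 1.04, so every value in them lay above every WT value.

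**Figure D2:**
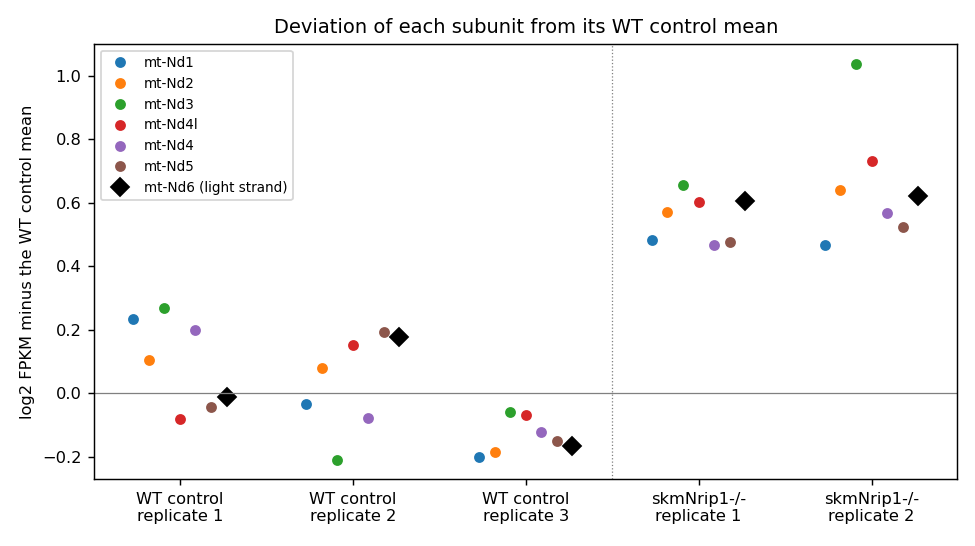
log2 FPKM of each subunit minus its WT control mean (vertical axis) in each of the 5 libraries (horizontal axis), with colours for the 6 heavy-strand subunits and a black diamond for mt-Nd6. WT points lie between -0.21 and 0.27 and those of the libraries labelled skmNrip1-/- between 0.47 and 1.04, with mt-Nd6 inside the range of the others in the latter libraries.

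Set against the heavy-strand members, mt-Nd6 did not differ beyond the spread between libraries. Its log2 ratio to the geometric mean of the other 6 was -0.60, -0.31 and -0.51 in the WT controls and -0.41 and -0.51 in the libraries labelled skmNrip1-/-. The values overlapped, with group means of -0.47 (SD 0.15, n = 3) and -0.46 (SD 0.07, n = 2) and a difference of 0.01. Such a ratio is formed within a library, so a factor that scales a whole library cancels in it. Against all 12 heavy-strand protein genes, without nuclear copies added, the difference was 0.04, with overlap. Against mt-Nd1, mt-Nd2 and mt-Nd5 it was 0.09, also with overlap. This reference, chosen after the values were seen, leaves out the 3 members that match a copy on chromosome 1 almost base for base.

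Most ratios between pairs of members overlapped between the groups, but that of mt-Nd6 to its opposite-strand neighbour mt-Nd5 did not. The log2 ratio of mt-Nd6 to mt-Nd5 was 0.12, 0.07 and 0.07 in the WT controls and 0.22 and 0.19 in the libraries labelled skmNrip1-/-, a difference of 0.11 without overlap. This was 1 of 21 ratios between pairs of members, of which 4 (19%) did not overlap between the groups: mt-Nd1 to mt-Nd3, mt-Nd3 to mt-Nd4, mt-Nd4l to mt-Nd5 and mt-Nd5 to mt-Nd6. With the reads of nuclear copies added, 2 of 21 (9.52%) did not overlap, and mt-Nd5 to mt-Nd6 was among them with a difference of -0.11. Of all genes tested, 15.8% did not overlap as higher and 14.4% as lower. An exact permutation test on 1 ratio cannot go below a one-sided p of 0.1 in either direction. These counts are therefore not read as a result about mt-Nd6. On the other side of mt-Nd6 lies mt-Cytb, the mtDNA-encoded subunit of complex III, and the log2 ratio of mt-Nd6 to it differed by 0.17 with overlap.

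As a share of everything in the table, the 7 subunits also took more in the libraries labelled skmNrip1-/-. They held 13.0, 14.6 and 13.5% of the FPKM sum in the WT controls and 16.3 and 17.4% in the libraries labelled skmNrip1-/-, or 13.7 ± 0.805 (SD, n = 3) against 16.9 ± 0.811% (SD, n = 2). The difference was 3.19 percentage points and the groups did not overlap. mt-Nd4l alone made up 4.22, 5.50 and 5.02% against 6.02 and 6.60%. Without it the other 6 held 8.79, 9.07 and 8.45% against 10.3 and 10.9%, again without overlap. mt-Nd5 was the member whose share overlapped, at 1.04, 1.36 and 1.14% against 1.33 and 1.37%.

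The choice of denominator set the size of this difference. Against the FPKM of genes not encoded in mtDNA the 7 subunits amounted to 24.6, 29.6 and 24.7% in the WT controls and 39.4 and 44.6% in the libraries labelled skmNrip1-/-, a difference of 15.7 percentage points and a ratio of 1.60. Within the 13 mtDNA protein genes their share was 27.5, 28.7 and 29.7% against 27.8 and 28.7%, which overlapped. With the short mt-Nd4l and mt-Atp8 left out, it was 31.3, 34.6 and 33.8% against 33.6 and 35.0%, also with overlap. Within the 7, the share of each member overlapped between the groups.

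**Figure D3:**
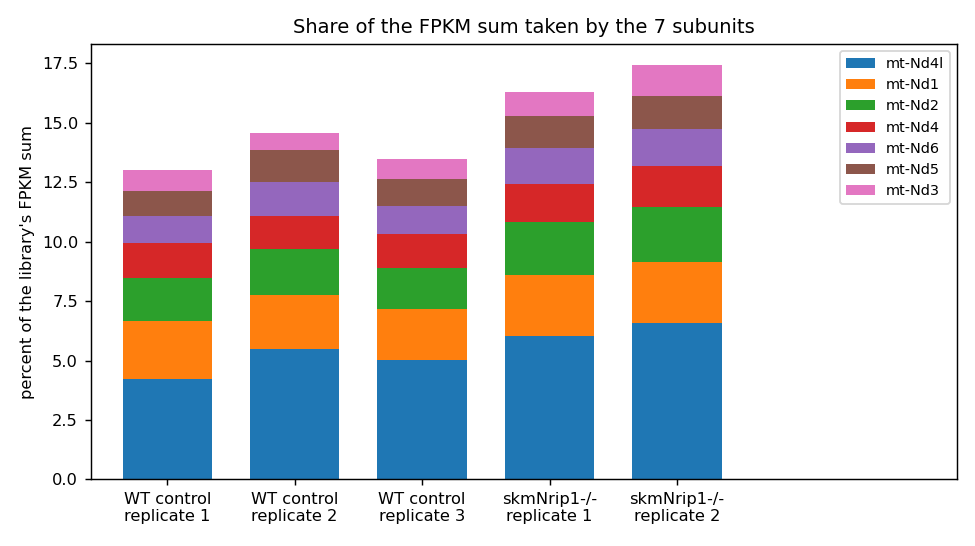
Percent of the FPKM sum of each library taken by the 7 subunits, stacked by subunit, in 3 WT control and 2 libraries labelled skmNrip1-/-. The stacks reach 13.0 to 14.6% in the WT controls and 16.3 to 17.4% in the libraries labelled skmNrip1-/-, and mt-Nd4l is the thickest layer in each.

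The FPKM sums were not equal between libraries, at 969144 to 1144710 in the WT controls and 1286250 and 1288040 in the libraries labelled skmNrip1-/-. The mtDNA protein gene mt-Atp8, of 204 bases, alone measured 171383, 196076 and 148492 FPKM in the WT controls. In the libraries labelled skmNrip1-/- it measured 283085 and 299742 FPKM. The sums, the shares of them and the TPM scale rest in part on its length correction, which was not tested. When each library was rescaled to the same sum (TPM, which scales a library to a fixed total), the log2 fold changes of the 7 stayed above 0 but shrank, to 0.18 for mt-Nd1 up to 0.55 for mt-Nd3. On this scale 6 of the 7 did not overlap, against 2.8% of all genes above and 49.6% below, and 1 of the 7, mt-Nd3, passed the unadjusted limma threshold, against 1.33% of all genes. The median gene moved to -0.29 on this scale, and the median of the 7, at 0.31, stood 0.60 above it. With libraries rescaled to the same sum outside mtDNA the changes ran from 0.55 for mt-Nd1 to 0.92 for mt-Nd3 and all 7 passed the unadjusted threshold, against 7.23% of all genes. None of the 7 overlapped on that scale, where 18.9% of all genes were separated as higher and 8.76% as lower. None was called as higher on either scale, against 0.239% of all genes with TPM and 0.362% with the sum outside mtDNA. The lowest limma adjusted p was 0.0831, for mt-Nd3 with the sum outside mtDNA.

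Copies of mtDNA in the nuclear genome share sequence with 2 members to a degree that moved their values. On chromosome 1 the pseudogene Gm28438 (24612775 to 24613119, minus strand) covers 345 of the 348 bases of mt-Nd3 with 99.71% identity, a single mismatch. Its neighbour Gm28439 (24611535 to 24612410, minus strand) covers 876 of the 1378 bases of mt-Nd4 without a mismatch. Reads from these stretches can be assigned to either copy, so the split between them is uncertain. Gm10222, which matches 294 of the 297 bases of mt-Nd4l, has no value among those used here. mt-Nd4l could therefore not be adjusted for it. The listed copies of mt-Nd2 and mt-Nd5 were under 1 FPKM.

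Gm28438 was listed at 7282, 5142 and 3009 FPKM in the WT controls and 7055 and 3740 FPKM in the libraries labelled skmNrip1-/-. That amounts to between 21.9 and 72.6% of mt-Nd3, and the library with the highest mt-Nd3 value had the lowest percentage. With the copy added, mt-Nd3 came to 17309, 12351 and 11008 FPKM in the WT controls and 20188 and 20845 FPKM in the libraries labelled skmNrip1-/-, and its log2 fold change fell from 0.85 to 0.63 (limma adjusted p = 0.373). The 2 libraries labelled skmNrip1-/- then lay close together. Gm28439 was listed at 14.8, 38.9 and 25.6% of mt-Nd4 in the WT controls and 34.5 and 32.0% in the libraries labelled skmNrip1-/-. Adding its FPKM without weighting by length gave mt-Nd4 19655, 19596 and 17197 FPKM against 27688 and 29137 FPKM. The log2 fold change of mt-Nd4 rose from 0.52 to 0.60 (limma adjusted p = 0.290). The copy is shorter than mt-Nd4, so this sum overstates the level, and adding it in proportion to length gave 0.57. With copies added, the 7 members ranged from 0.47 to 0.67, a narrower span than the 0.47 to 0.85 of the values as deposited. The top of this span is mt-Nd4l, to which no copy was added.

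**Figure D4:**
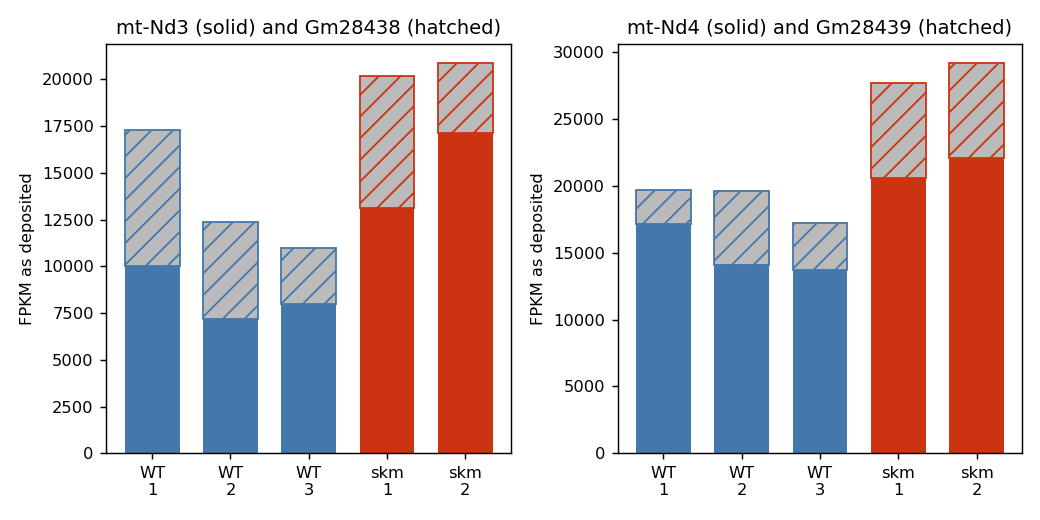
FPKM as deposited of mt-Nd3 and mt-Nd4 (solid) with their nuclear copies Gm28438 and Gm28439 stacked above (hatched), in each of the 5 libraries (WT, WT control; skm, labelled skmNrip1-/-). The copy of mt-Nd3 ranges from 21.9 to 72.6% of the gene and the summed bars of the libraries labelled skmNrip1-/- stand above all those of the WT controls in both panels.

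The levels of the short members also rest on how FPKM was divided by length. Among genes above 600 bases with a single transcript, FPKM multiplied by length minus 302 to 314 bases came in whole steps in each library, with 95.5 to 98.4% of values within 0.1 of a whole number of steps. Read that way, each library counted 600168 fragments or more for each of mt-Nd1, mt-Nd2, mt-Nd4 and mt-Nd5, and the highest value was 1271889, for mt-Nd5 in replicate 2 of the libraries labelled skmNrip1-/-. The same subtraction leaves 46, 34 and 40 bases of mt-Nd3 in the WT controls and 38 and 38 in the libraries labelled skmNrip1-/-, and fewer than 0 of mt-Nd4l, so it could not have been applied to mt-Nd4l unchanged. The high level of mt-Nd4l therefore cannot be told apart from its length correction. Of the 519 bases of mt-Nd6, 217, 205 and 211 are left in the WT controls and 209 and 209 in the libraries labelled skmNrip1-/-. Since the subtracted length differed between libraries, differences of mt-Nd3, mt-Nd4l and mt-Nd6 between libraries can also depend on it. So can ratios of these to other members within a library. The part of the subtraction in them was not tested. The log2 ratio of mt-Nd4l to mt-Nd4, which share a messenger RNA, was 1.49, 2.01 and 1.83 in the WT controls and 1.91 and 1.94 in the libraries labelled skmNrip1-/-, and overlapped.

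The other 6 mtDNA protein genes, which encode subunits of complexes III, IV and V, measured on the same side as the 7. All 6 were separated as higher, 2 passed the unadjusted threshold and none was called, with a median log2 fold change of 0.51 and a range from 0.44 for mt-Cytb to 0.77 for mt-Atp8. Rescaled to TPM, their median was 0.21. Beside these counts and those of the lists below, 15.8% of all genes tested were separated as higher and 14.4% as lower. At the unadjusted threshold 6.57% of all genes passed as higher and 5.33% as lower, and 6064 of 12148 were above 0. The values of the 6 are without nuclear copies. Gm28661, which matches 681 of the 684 bases of mt-Co2, was listed at 7140, 6262 and 282.6 FPKM in the WT controls. In the libraries labelled skmNrip1-/- it was listed at 1408 and 0 FPKM. mt-Co2 was 1 of the 2 that passed the unadjusted threshold, and its value with this copy added is not given here.

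The nuclear partners of the 7 in complex I lay lower. Of 37 nuclear-encoded subunits 30 had a log2 fold change above 0, 12 did not overlap as higher, 4 passed the unadjusted threshold as higher and none was called. Their median was 0.09, or -0.21 on the TPM scale, where the 7 had 0.31. Ndufs1, the large iron-sulphur subunit of the matrix arm, had the highest value of the list, at 192.5, 269.6 and 207.9 FPKM in the WT controls and 303.1 and 290.3 FPKM in the libraries labelled skmNrip1-/- (log2 fold change 0.42, SE 0.16, limma adjusted p = 0.375). Ndufa13 had the lowest, at -0.16. The lowest of the 7 mtDNA-encoded members, mt-Nd1 at 0.47, lay above the highest nuclear subunit.

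Among 16 complex I assembly factors tested, 13 were above 0, 10 did not overlap as higher and 6 passed the unadjusted threshold as higher, with a median of 0.25 (-0.05 on the TPM scale) and none called. Acad9, a factor of the assembly of the membrane arm, had the highest log2 fold change (0.52, SE 0.11, limma adjusted p = 0.167), and Ndufaf8 the lowest (-0.28).

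Among 15 factors tested that transcribe and copy mtDNA, 13 were above 0, 8 did not overlap as higher and 1 as lower. At the unadjusted threshold 3 passed as higher and 1 as lower, and none was called, with a median of 0.20 (-0.10 on the TPM scale). Tfam, which packages mtDNA and starts its transcription, measured 24.6, 23.0 and 23.5 FPKM in the WT controls and 30.5 and 29.2 FPKM in the libraries labelled skmNrip1-/-. The groups did not overlap, and the log2 fold change was 0.33 (limma adjusted p = 0.276). Polrmt, the mitochondrial RNA polymerase, measured 8.33, 7.14 and 8.61 against 9.86 and 7.10 FPKM and overlapped. Mterf2 had the highest value of the list (0.53) and Rnaseh1, which removes RNA from RNA-DNA hybrids, the lowest (-0.35).

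Factors that cut, bind and degrade mitochondrial RNA gave 15 of 19 above 0, 11 that did not overlap as higher and 6 past the unadjusted threshold as higher, with a median of 0.25 (-0.04 on the TPM scale) and none called. Pnpt1, a subunit of the mitochondrial RNA degrading complex, was highest at 0.56 and Fastkd3 lowest at -0.27. Lrpprc, which binds and stabilises mitochondrial messenger RNA, measured 26.3, 38.4 and 29.1 FPKM in the WT controls and 41.2 and 40.9 FPKM in the libraries labelled skmNrip1-/- (log2 fold change 0.41, limma adjusted p = 0.417). Grsf1, an RNA binding protein of mitochondrial granules, measured 65.7, 82.4 and 80.7 against 101.6 and 89.7 FPKM (0.33, limma adjusted p = 0.417). Slirp, from the same list, measured 20.8, 11.8 and 13.9 against 13.2 and 15.6 FPKM and overlapped (-0.07, limma adjusted p = 0.939).

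**Figure D5:**
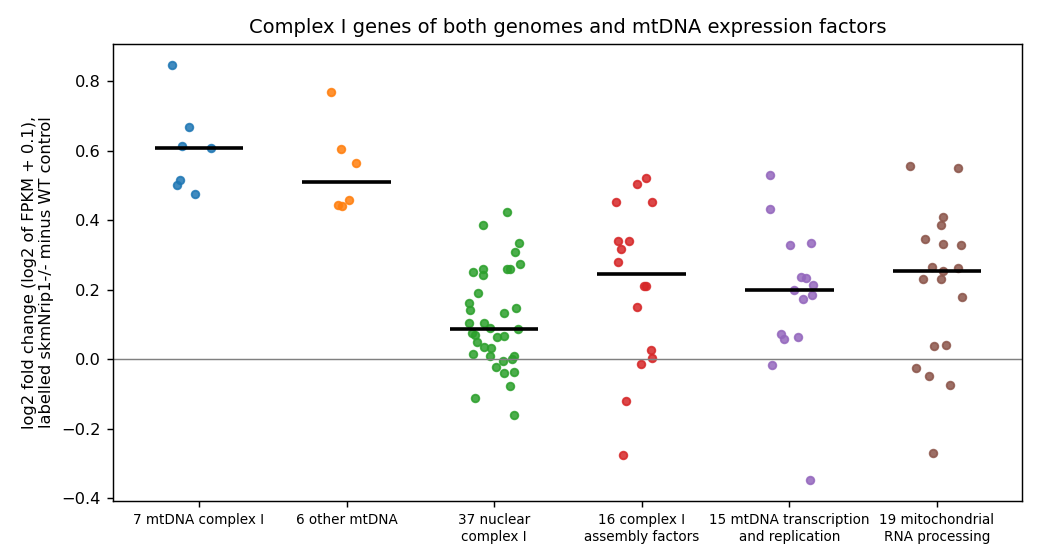
log2 fold change of log2(FPKM + 0.1), libraries labelled skmNrip1-/- minus WT control, 1 point per gene, with a bar at the median of each list. The 7 mtDNA-encoded complex I subunits lie between 0.47 and 0.85 (median 0.61) and the 37 nuclear-encoded subunits between -0.16 and 0.42 (median 0.09).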

How the data were processed

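RNA from TA muscle was sequenced by the authors as 150 bp paired-end reads, in 3 WT control and 2 skmNrip1-/- libraries as analysed here. The study describes 3 mice per group. Per the submitters' processing notes and methods, reads were quantified with Salmon 1.10.2 on mm10 and compared with DESeq2 1.44.0. The deposited table gives FPKM per gene and library, and the authors' own log2 fold changes and adjusted p-values, which were not used. How FPKM was computed, the annotation release, strandedness and poly(A) selection are not given in the sources used here.

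Values were taken as log2(FPKM + 0.1). The 12148 of 17015 genes that averaged 0.5 FPKM or more were fitted with limma 3.58.1 in R 4.3.3 (intensity trend, no covariate), with Benjamini-Hochberg adjustment over all of them. Calls needed an adjusted p within 0.05 together with a fold change of 1.2 or more in either direction. Ratios and shares were formed within libraries and carry no test. Positions and sequences came from GENCODE M21 (GRCm38), which held 16996 of the table's identifiers, and nuclear copies were found with blastn 2.17.0. The code was tested on simulated data. Total reads per library are not in the table. In each library the median over genes of the ratio to the geometric mean of the libraries (the median of ratios) was 1.00171. The deposited FPKM were thus already level by the median of ratios. The library factor read from the FPKM steps was 0.82 to 1.11 of the first WT control, and it need not equal relative read depth.

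The members and lists were chosen with earlier results of these data known. Beside the 7 members, the text names the highest and lowest gene of each list, Nrip1, nuclear copies, and the 5 genes nearest in pattern to mt-Nd6 and to the mean of the other members. Tfam, Polrmt, Lrpprc, Grsf1 and Slirp were named after their values were seen.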

Additional observations from a re-analysis of the deposited data

How the results depend on the processing

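All 7 log2 fold changes stayed above 0 and none was called under the 17 alternatives tried for each (119 of 119 values), which covered pseudocounts of 1 and 0.01, the minimum on FPKM, 3 other scalings, the moderation of variances, the nuclear copies, the replicate block and leaving out each library. Rescaled to TPM, the median of the 7 was 0.31 (0.61 as deposited), that of the nuclear-encoded complex I subunits -0.21 (0.09), and 88 genes of all tested were called, 29 higher and 59 lower (55 as deposited, 45 and 10). Variances without the trend gave 25 calls. The moderation of variances, the minimum on FPKM and scaling by the median of ratios left the fold changes of the 7 unchanged. Their signs could not have moved under these settings. For each of the 7, every library labelled skmNrip1-/- lay above every WT control. The pseudocounts, the replicate block and leaving out a library therefore could not have changed a sign either. Signs were open to change only under TPM, the same sum outside mtDNA and, for mt-Nd3 and mt-Nd4, the added nuclear copies. With FPKM outside mtDNA as the denominator, the share of the 7 differed by 15.7 percentage points. Leaving out each library in turn gave a median of the 7 from 0.51 to 0.65, a difference of mt-Nd6 to the other 6 from -0.05 to 0.09, a share difference from 2.62 to 3.77 points and a nuclear complex I median from -0.03 to 0.20, below 0 without WT control replicate 2. Calls among all genes then ran from 9 to 71: 9 and 16 without replicate 2 and 1 of the libraries labelled skmNrip1-/-, 22 and 30 without WT control replicates 3 and 1. Where 1 library labelled skmNrip1-/- was left, it was assumed to vary like the WT controls.

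With the replicate number as a block, 22 genes were called, the median of the 7 was 0.51 and the mt-Nd6 difference -0.01. Replicate 3 is in the WT controls alone, so the block takes it out of the contrast. The fold changes were those without WT control replicate 3, and the 2 settings are not separate checks of them. The 2 replicate numbers found in both groups gave correlations of 0.0647 and 0.0952 between deviations. The deviations of the 2 libraries labelled skmNrip1-/- mirror each other, so these values cannot show whether libraries were paired. Libraries with the same number were not taken as pairs. Adding copies in proportion to length was chosen after seeing the data and gave mt-Nd4 0.57. The number of libraries and the split of reads between copies limit precision, and the FPKM steps could be read for genes above 600 bases alone.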

Other observations

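Over the 5 libraries, the genes outside mtDNA nearest in pattern to mt-Nd6, by root mean square difference of centred log2 values, were Ephx2 (0.0495), which encodes an epoxide hydrolase, Prrg1 (0.0553), Mchr1 (0.0555), Coq5 (0.0647), an enzyme of ubiquinone synthesis, and Phyh (0.0668), a peroxisomal hydroxylase. Among the members, mt-Nd5 (0.0590) and mt-Nd2 (0.0698) were nearest to mt-Nd6 and mt-Nd3 (0.272) furthest. Nearest to the mean of the other 6 members were Mstn (0.0222), the myostatin gene that restrains muscle growth, Coq6 (0.0466), Ppp1cc (0.0545), Kif16b (0.0583) and Ctnna3 (0.0588). These are the extremes of 12135 genes over 5 points that share library and depth, and they are given as a description.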
